A study of Oryza sativa with 3 samples.

Results

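Among the 230 predicted miRNAs named OsmiR in the rice embryo, 7 lay with their whole sequence inside a precursor that was also listed for a known miRNA. They were OsmiR-44, OsmiR-52, OsmiR-55, OsmiR-68, OsmiR-131, OsmiR-136 and OsmiR-198. They were found by searching every OsmiR sequence, on the listed strand, in the 83 listed precursors of known miRNAs. The search itself used no read count, but to be listed as an OsmiR a sequence needed more than 5 reads in at least 1 library. OsmiR-52 and OsmiR-131 exceeded 5 reads at 24 HAI alone. Under that rule their higher counts there are a condition of their being listed, and tests of their 24 HAI reads are not used as evidence of a change. OsmiR-44 and OsmiR-198 exceeded 5 reads at 12 and 24 HAI but not at 0 HAI, so they were listed through the imbibed libraries. Their comparisons with 0 HAI carry a like condition and are described without being used as evidence of a change. The other 3 exceeded 5 reads in every library. In the table, 6 of the 230 OsmiR had a highest count of 5, and none had a lower one. A count of 5, as OsmiR-131 had at 12 HAI, was therefore not always left out. The deposited tables hold 289 miRNAs, with 223 other OsmiR and 59 known sequences beside these 7. Together they were found in 10 of the 83 precursors, which carry 7 annotated mature miRNAs of 6 families (miR156, miR167, miR169, miR820, miR1425 and miR1862). Each OsmiR is compared here with the annotated mature miRNA of the same precursor at 0, 12 and 24 h after imbibition (HAI).

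The embryos were dissected by hand from seeds of the rice cultivar Nipponbare, for which the sources name no mutation or transgene. In all 3 groups the hulls had been removed, and the imbibed seeds stood in distilled water at 30 °C in darkness with no agent added. The groups are the dry seed (0 HAI) and seeds after 12 h and 24 h of imbibition. Each time point has 1 small RNA library, made from the RNA of 4 plates with 50 seeds each that was mixed beforehand. No difference between time points in these libraries therefore has a replicate check, and each test compares 2 libraries. The authors also measured selected miRNAs by stem-loop real-time RT-PCR with biological replicates and reported that most patterns matched the sequencing. OsmiR-136, osa-miR156abcei, osa-miR156dj, osa-miR167abc and osa-miR820abc were among them. Those measurements are not used here. A whole embryo was extracted, so that fewer cells of a type and less RNA per cell cannot be told apart. The tables list miRNAs alone, and the tissue label could not be checked against marker genes.

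Plant miRNAs are cut by Dicer-like enzymes from the stem of a folded precursor as a duplex with short 3′ overhangs. One strand, the mature miRNA, is loaded into an Argonaute protein and guides the cleavage of matching transcripts, while the opposite strand, called miRNA*, is usually degraded and is found at a lower level. The arms of the stem are called 5p and 3p after the end of the precursor they lie nearer to. The miR156 family is known for repressing SPL transcription factors, which set the pace of the juvenile-to-adult transition, and miR167 represses auxin response factors. The miR169 family acts on NF-YA transcription factors, and miR1425 acts on transcripts of pentatricopeptide repeat proteins. In rice, miR820 lies within DNA transposons and acts on the DNA methyltransferase gene OsDRM2.

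The 7 precursor sequences below show where each pair lies. The letters are those of the deposited tables, which write T for U, with positions in MSU 7.0. Each sequence runs 5′ to 3′ on its own strand, and capitals mark the annotated miRNA and the OsmiR. The first stretch of capitals is the annotated miRNA and the second is the OsmiR, except in osa-MIR1862e, where OsmiR-198 comes first.
osa-MIR156i with OsmiR-68, chr2:24119995-24120082, minus strand, intergenic: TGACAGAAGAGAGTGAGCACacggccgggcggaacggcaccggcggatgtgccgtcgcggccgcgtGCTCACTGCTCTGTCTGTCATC
osa-MIR156d with OsmiR-55, chr2:4512907-4512994, minus strand, exon: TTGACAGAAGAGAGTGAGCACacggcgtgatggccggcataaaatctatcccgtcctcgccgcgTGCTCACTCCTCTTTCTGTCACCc
osa-MIR167b with OsmiR-44, chr3:30546945-30547073, minus strand, intergenic: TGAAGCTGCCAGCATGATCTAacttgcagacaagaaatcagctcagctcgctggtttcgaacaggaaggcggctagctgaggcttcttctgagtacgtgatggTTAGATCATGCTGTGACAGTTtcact
osa-MIR169i with OsmiR-52, chr8:26817498-26817587, plus strand, exon: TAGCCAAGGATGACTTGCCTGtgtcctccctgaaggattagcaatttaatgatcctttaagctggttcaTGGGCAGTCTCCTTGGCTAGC
osa-MIR1425 with OsmiR-131, chr5:8862162-8862239, plus strand, exon: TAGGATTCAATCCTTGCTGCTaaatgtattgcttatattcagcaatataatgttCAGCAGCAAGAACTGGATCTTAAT
osa-MIR820a with OsmiR-136, chr1:14130483-14130667, plus strand, intergenic: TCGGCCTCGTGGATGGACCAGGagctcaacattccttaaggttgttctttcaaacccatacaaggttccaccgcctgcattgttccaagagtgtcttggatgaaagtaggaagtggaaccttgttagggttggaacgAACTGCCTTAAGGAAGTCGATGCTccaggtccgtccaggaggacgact
osa-MIR1862e with OsmiR-198, chr11:2523243-2523313, plus strand, intron: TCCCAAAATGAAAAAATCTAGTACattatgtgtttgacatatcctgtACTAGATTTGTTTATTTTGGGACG

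All 7 OsmiR lay on the arm opposite to the annotated miRNA. OsmiR-198 was on the 5p arm and faced a 3p miRNA, while the other 6 were on the 3p arm and faced a 5p miRNA. Folding the listed precursors with RNAfold paired 18 to 21 bases of OsmiR-44, OsmiR-52, OsmiR-55, OsmiR-68, OsmiR-131 and OsmiR-198 with bases of the annotated miRNA. At the open end of the stem, OsmiR-52, OsmiR-68 and OsmiR-131 ended 2 nt beyond the base opposite the 5′ end of the annotated miRNA. In osa-MIR1862e it was the annotated miRNA that overhung OsmiR-198 by 2 nt. OsmiR-55 overhung by 1 nt, and OsmiR-44 stopped 3 nt short of the end of osa-miR167abc. On the loop side the overhang was 2 nt only for OsmiR-68 and OsmiR-198, and for OsmiR-52, OsmiR-55, OsmiR-44 and OsmiR-131 it was 0, 1, -1 and -1 nt, where a negative value means that the strand fell short. An overhang of 2 nt at both ends, the geometry of a duplex cut by Dicer-like enzymes, was thus found for 2 of the 7 pairs in these folds.

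**Figure D1:**
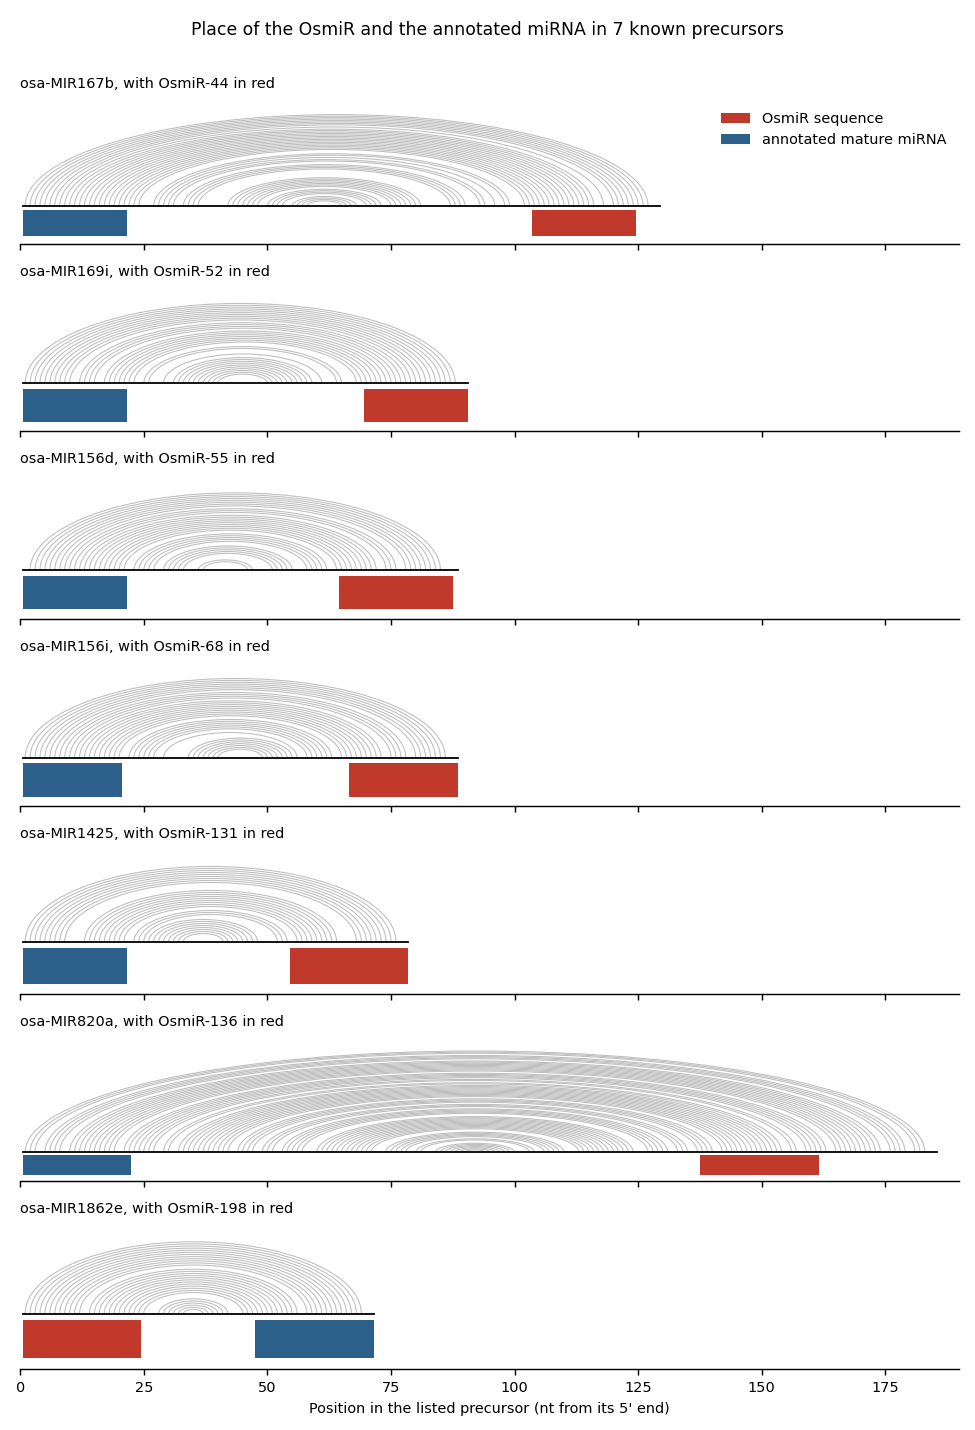
Place of the OsmiR (red) and of the annotated mature miRNA (blue) in 7 listed precursors, with the position in nt from the 5′ end on the horizontal axis and arcs for the base pairs of the RNAfold structure. The blocks face each other across the stem in 6 precursors, whereas in osa-MIR820a, with 185 nt the longest, OsmiR-136 at 138 to 161 nt is not joined by any arc to the annotated miRNA at 1 to 22 nt.

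OsmiR-136 was the exception in its place. It began at position 138 and ended at position 161 of osa-MIR820a, osa-MIR820b and osa-MIR820c, and none of its 24 bases was paired with osa-miR820abc. It faced positions 23 to 46 of the 5p arm, directly next to the annotated miRNA, which ends at position 22. Its own listed precursor, OsMIR-136, lies elsewhere in the genome, at chr12:18660130-18660266 in MSU 7.0. These 137 nt were 90.5%, 93.4% and 92.7% identical to positions 25 to 161 of osa-MIR820a, osa-MIR820b and osa-MIR820c, and did not hold the mature sequence of miR820. The reads of OsmiR-136 cannot be assigned to 1 of these 4 loci. The other 2 copies of the known precursor are chr7:13120541-13120725 on the minus strand for osa-MIR820b and chr10:6928685-6928869 on the plus strand for osa-MIR820c, both intergenic.

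The precursors listed for the other 6 OsmiR were the known precursors themselves or parts of them. The sequences were identical for osa-MIR156i, osa-MIR1425, osa-MIR1862e and osa-MIR169i. OsMIR-44 covered 119 of the 129 nt of osa-MIR167b, and OsMIR-55 covered 86 of the 88 nt of osa-MIR156d. OsmiR-52 was found in a second precursor, osa-MIR169m (chr8:26807359-26807462, plus strand, exon), of whose 104 nt the listed OsMIR-52-2 covered 103. A deposited column notes whether a miRNA* was found. It read no for all 7 annotated miRNAs, and among the 7 OsmiR it read yes for OsmiR-131 alone, against 57 of all 230 OsmiR.

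The mature lengths were 21 nt for OsmiR-44 and OsmiR-52, 22 nt for OsmiR-68, 23 nt for OsmiR-55, and 24 nt for OsmiR-131, OsmiR-136 and OsmiR-198. Thus 3 of the 7 were 24-nt, against 173 of the 223 other OsmiR. The seed, bases 2 to 8, differed between all 7 sequences and from that of each annotated miRNA. Of all 289 miRNAs, only OsmiR-175 shared a seed with one of them, OsmiR-198.

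Read totals of the 3 libraries framed all further values. The genome-mapped reads numbered 19203513, 22332607 and 17359816 at 0, 12 and 24 HAI, so that 1 read was worth 0.0521, 0.0448 and 0.0576 TPM, a unit that here means reads per 1000000 genome-mapped reads. The 7 OsmiR had 500, 2316 and 2448 reads, or 3.12%, 6.89% and 8.74% of all OsmiR reads. OsmiR-68 held 10.6% of them at 0 HAI, 58.5% at 12 HAI and 65.1% at 24 HAI. Across all miRNAs the median log2 ratio of TPM was 1.004 for 24 over 0 HAI and 0.84 for 12 over 0 HAI, so that a member near these values moved like the median miRNA.

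OsmiR-68 and OsmiR-55 come from the 3p arms of precursors of miR156, whose annotated 5p sequences were abundant in all 3 libraries. OsmiR-68 had 53, 1355 and 1594 reads at 0, 12 and 24 HAI, or 2.76, 60.7 and 91.8 TPM. The annotated osa-miR156abcei had 33922, 64415 and 57524 reads, or 1766, 2884 and 3314 TPM. OsmiR-68 was low only in the dry seed, while the annotated strand was already abundant there. OsmiR-68 was 22.0-fold higher at 12 than at 0 HAI (95% limits, 16.7 to 29.5, exact test, adjusted p = 1.65e-285) and 33.3-fold higher at 24 than at 0 HAI (25.3 to 44.6). For osa-miR156abcei these ratios were 1.63 and 1.88. Between 12 and 24 HAI OsmiR-68 rose 1.51-fold (exact test, adjusted p = 5.50e-28).

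Set against the annotated strand in the same library, which needs no library total, OsmiR-68 had 0.156 reads per 100 reads of osa-miR156abcei at 0 HAI (exact 95% limits, 0.117 to 0.204). It had 2.10 per 100 at 12 HAI (1.99 to 2.22) and 2.77 per 100 at 24 HAI (2.63 to 2.91). The 3 intervals did not overlap. The ratio of the pair was 17.7 times as high at 24 as at 0 HAI (13.5 to 23.8), 13.5 times as high at 12 as at 0 HAI (10.2 to 18.1) and 1.32 times as high at 24 as at 12 HAI (1.22 to 1.42). The annotated osa-miR156abcei is listed with 5 precursors, and its 20 bases also lie within osa-miR156dj, which is listed with 2 more. Its reads are therefore not those of osa-MIR156i alone.

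OsmiR-55, from osa-MIR156d, had 22, 61 and 42 reads at 0, 12 and 24 HAI, or 1.15, 2.73 and 2.42 TPM. The annotated osa-miR156dj had 43067, 80489 and 65482 reads and is listed with 2 precursors, so that its reads are not those of osa-MIR156d alone. In each library OsmiR-55 stayed under 0.1 reads per 100 reads of osa-miR156dj, at 0.0511, 0.0758 and 0.0641. At 24 HAI this was the lowest share among the 7, whose annotated miRNAs are listed with 1 to 5 precursors each. The TPM of OsmiR-55 was 2.11-fold higher at 24 than at 0 HAI (1.23 to 3.71, exact test, adjusted p = 0.00851) and 2.38-fold higher at 12 than at 0 HAI (1.44 to 4.08, adjusted p = 0.000781), but with the summed miRNA reads as totals the log2 ratio of 24 over 0 HAI turned to -0.12. The ratio to osa-miR156dj was 1.26 times as high at 24 as at 0 HAI, with limits of 0.733 to 2.21 that hold 1.

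The 3p sequences of miR156 are near-identical, as the listing of OsmiR-68, OsmiR-55 and the known 3p sequence osa-miR156l shows, with the seed in capitals.
OsmiR-68: gCTCACTGctctgtctgtcatc
OsmiR-55: tGCTCACTcctctttctgtcacc
osa-miR156l: gCTCACTTctctttctgtcagc
Counted from the 5′ end of OsmiR-68, and with its base first, OsmiR-55 began 1 nt earlier and differed at G8C, G13T and T21C. OsmiR-68 and osa-miR156l differed at G8T, G13T and T21G. OsmiR-68 also matched osa-MIR156e with 1 mismatch, and known miRNAs had been matched with up to 2 mismatches, so how reads of such copies were divided is uncertain and was not tested. The known osa-miR156l had 3, 43 and 151 reads at 0, 12 and 24 HAI, a ratio of 55.7 for 24 over 0 HAI (18.7 to 273, exact test, adjusted p = 9.25e-44). Against the summed 5p reads of miR156, OsmiR-68 came to 0.0688, 0.935 and 1.30 per 100, osa-miR156l to 0.00390, 0.0297 and 0.123, and OsmiR-55 to 0.0286, 0.0421 and 0.0341. The shares of OsmiR-68 and osa-miR156l were thus highest at 24 HAI, and that of OsmiR-55 at 12 HAI.

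**Figure D2:**
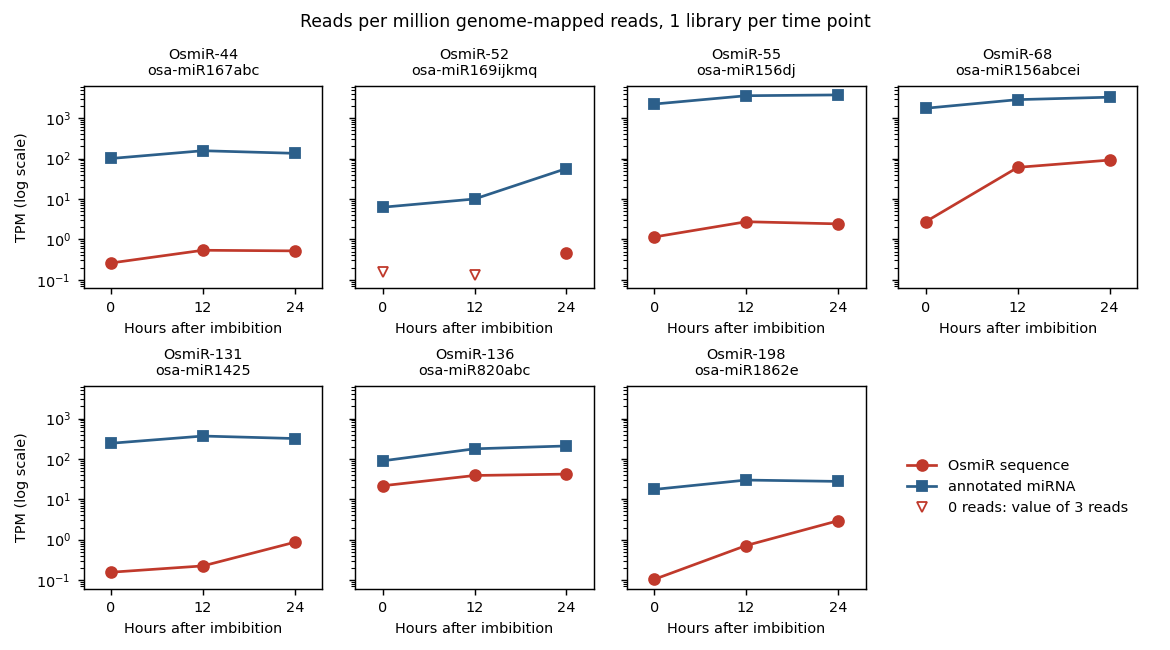
TPM (log scale) of each OsmiR (red circles) and of the annotated miRNA of the same precursor (blue squares) at 0, 12 and 24 HAI, 1 library per time point. Open triangles stand for 0 reads and are drawn at the value of 3 reads. OsmiR-68 climbs to 91.8 TPM at 24 HAI and OsmiR-198 to 2.94 TPM while their annotated miRNAs change less than 2-fold.

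OsmiR-44, opposite the auxin-related osa-miR167abc, was rare in every library. It had 5, 12 and 9 reads at 0, 12 and 24 HAI, or 0.260, 0.537 and 0.518 TPM, whereas osa-miR167abc had 1932, 3498 and 2344 reads. The annotated sequence is listed with 3 precursors, so that its reads are not those of osa-MIR167b alone. Per 100 reads of osa-miR167abc there were 0.259, 0.343 and 0.384 reads of OsmiR-44, with limits that overlapped. The TPM ratio of 1.99 for 24 over 0 HAI did not pass the test (0.599 to 7.56, exact test, adjusted p = 0.360), nor did the ratio of 2.06 for 12 over 0 HAI (adjusted p = 0.312). A change of the pair was not detectable at this depth, since the ratio of ratios of 1.48 for 24 over 0 HAI had limits of 0.446 to 5.64.

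OsmiR-52, opposite osa-miR169ijkmq, had 0, 0 and 8 reads at 0, 12 and 24 HAI. With no read counted, up to 3 reads remain possible, or 0.156 TPM at 0 HAI and 0.134 TPM at 12 HAI, while 0.461 TPM was measured at 24 HAI. Since only these 8 reads placed OsmiR-52 among the OsmiR, its fold change and test are not used as evidence of a change. Its calls enter only the counts over all 7 OsmiR, and the figure of log2 ratios draws it with 3 reads in place of 0 at 0 HAI. The annotated osa-miR169ijkmq had 120, 223 and 985 reads at 0, 12 and 24 HAI, and was 9.08-fold higher at 24 than at 0 HAI, the largest ratio among the 7 annotated miRNAs. It is listed with 5 precursors, so that its reads are not those of osa-MIR169i and osa-MIR169m alone. At 24 HAI there were 0.812 reads of OsmiR-52 per 100 reads of osa-miR169ijkmq (0.350 to 1.61). At 0 and 12 HAI the 3 reads that a count of 0 allows would come to 2.50 and 1.35 per 100, above that value, so that a lower share in those libraries was not detectable.

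OsmiR-131, opposite osa-miR1425, had 3, 5 and 15 reads at 0, 12 and 24 HAI, or 0.156, 0.224 and 0.864 TPM. The annotated osa-miR1425 had 4681, 8218 and 5542 reads and is listed with 1 precursor, so that both strands come from osa-MIR1425 as listed. OsmiR-131 came to 0.0641, 0.0608 and 0.271 reads per 100 reads of osa-miR1425. The 24 HAI library, the only one in which OsmiR-131 exceeded 5 reads, had the highest share. The values that follow describe this and are no independent evidence of a change. The ratio of the pair was 4.22 times as high at 24 as at 0 HAI (1.19 to 22.8) and 4.45 times as high at 24 as at 12 HAI (1.54 to 15.7). With 99% limits the first of these intervals held 1. The TPM ratio was 5.53 for 24 over 0 HAI (1.56 to 29.8) and 3.86 for 24 over 12 HAI (1.33 to 13.6). Under 3 other scalings the first gave an adjusted p of 0.278 to 0.368 by the exact test, and with the summed miRNA reads as totals the second gave 0.0733. The ratio of 1.43 for 12 over 0 HAI did not pass the exact test (adjusted p = 0.802), and its direction turned under each of 3 other scalings.

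OsmiR-198, opposite osa-miR1862e, had 2, 16 and 51 reads at 0, 12 and 24 HAI, or 0.104, 0.716 and 2.94 TPM. Its ratio of ratios for 24 over 0 HAI was the highest together with that of OsmiR-68, but rests on 2 reads at 0 HAI. OsmiR-198 did not exceed 5 reads there. Its values against 0 HAI therefore describe the counts and are no independent evidence of a change. The annotated osa-miR1862e, listed with 1 precursor, had 337, 668 and 481 reads. It differs from osa-miR1862d at 1 of 23 aligned bases, and known miRNAs had been matched with up to 2 mismatches. How reads were divided between these 2 sequences is uncertain and was not tested. Per 100 reads of osa-miR1862e there were 0.593 (0.0716 to 2.16), 2.40 (1.36 to 3.92) and 10.6 (7.78 to 14.2) reads of OsmiR-198. The interval at 24 HAI lay above both others, which overlapped each other. The ratio of the pair was 17.9 times as high at 24 as at 0 HAI (4.63 to 152) and 4.43 times as high at 24 as at 12 HAI (2.45 to 8.41). For 12 over 0 HAI it was 4.04, with limits of 0.939 to 36.4.

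In TPM, under the same condition, OsmiR-198 was 28.2-fold higher at 24 than at 0 HAI (7.42 to 239, exact test, adjusted p = 6.42e-14). It was 6.88-fold higher at 12 than at 0 HAI (1.62 to 61.7, exact test, adjusted p = 0.00810). The call for 12 over 0 HAI was lost under other scalings, with adjusted p between 0.242 and 0.261. The known sequences of the family had lower ratios. For 24 over 0 HAI the ratio was 1.58 for osa-miR1862e, 1.39 for osa-miR1862abc and 1.08 for osa-miR1862d, the last with an adjusted p of 0.649.

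OsmiR-136, in the precursors of the transposon-borne osa-miR820abc, was the most frequent of the 7 in the dry seed. It had 415, 867 and 729 reads at 0, 12 and 24 HAI, or 21.6, 38.8 and 42.0 TPM, beside 1719, 3968 and 3629 reads of osa-miR820abc. It was also closest in level to the annotated sequence, with 24.1 (21.6 to 26.9), 21.8 (20.3 to 23.5) and 20.1 (18.5 to 21.8) reads per 100 reads of osa-miR820abc. Neighbouring intervals overlapped. This was the only pair whose ratio was lower at 24 than at 0 HAI beyond counting error, with a ratio of ratios of 0.832 (0.727 to 0.954), and the reads of both sequences are shared over several loci. In TPM, OsmiR-136 was 1.94-fold higher at 24 than at 0 HAI (1.72 to 2.20, exact test, adjusted p = 1.86e-27) and 1.80-fold higher at 12 than at 0 HAI (adjusted p = 4.81e-23). These ratios were near the median of all miRNAs, and under 3 other scalings the log2 ratio of 24 over 0 HAI lay between -0.24 and -0.03.

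**Figure D3:**
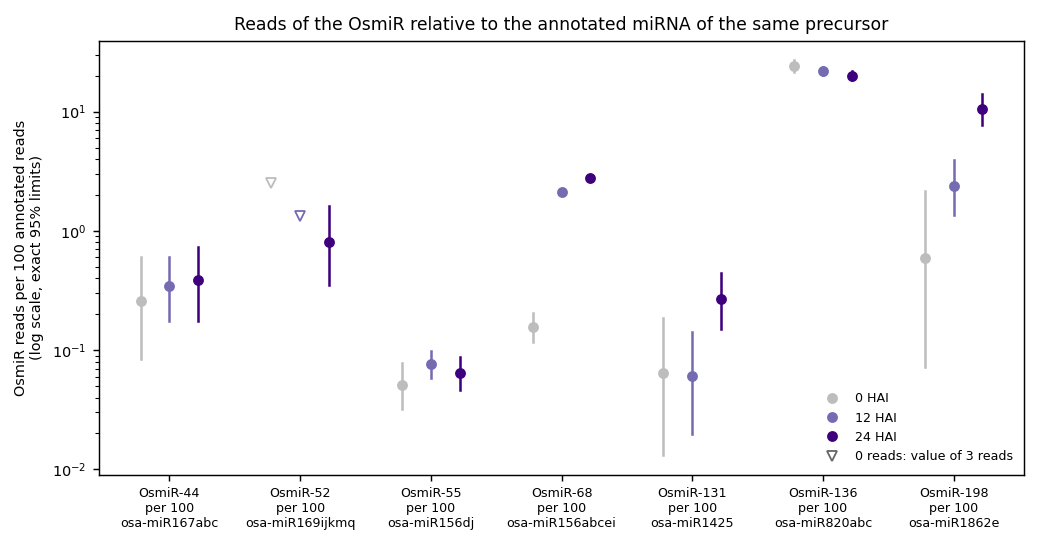
Reads of each OsmiR per 100 reads of the annotated miRNA of the same precursor (log scale) at 0, 12 and 24 HAI, 1 library each. Bars are exact 95% limits for counting error alone, and open triangles show the value of 3 reads where OsmiR-52 had 0 reads. OsmiR-68 and OsmiR-198 stand higher at 24 than at 0 HAI with limits that do not overlap, and OsmiR-136 stays between 20.1 and 24.1. For OsmiR-198, which had 2 reads at 0 HAI and was listed through the imbibed libraries, this describes the counts and is no independent evidence of a change.

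Counted without OsmiR-52 and OsmiR-131, 4 of the 5 other OsmiR were called higher at 24 than at 0 HAI by the exact test with an adjusted p under 0.05, and none lower. Of these 4, OsmiR-198 did not exceed 5 reads at 0 HAI, while OsmiR-55, OsmiR-68 and OsmiR-136 did so in every library. With OsmiR-52 and OsmiR-131 it would be 6 of 7, but these 2 exceeded 5 reads only at 24 HAI. Of all 289 miRNAs, 52.9% were called higher and 1.73% lower. For 12 over 0 HAI, 4 of the 6 OsmiR with a read were called higher, OsmiR-198 again among them, against 48.6% of all miRNAs. None was called lower, against 0.694%. For 24 over 12 HAI, OsmiR-68 and OsmiR-198 were called higher, 2 of the 5 without OsmiR-52 and OsmiR-131 (4 of 7 with them), against 20.1% of all miRNAs. None was called lower, against 8.3%. The median ratio of the 5 for 24 over 0 HAI was 2.11, whereas it was 2.00 over all miRNAs and 1.97 over the OsmiR outside known precursors. Over all 7 it was 5.53, the ratio of OsmiR-131 itself. The 7 annotated miRNAs had a median ratio of 1.68, and all of them were called higher. For 24 over 12 HAI, osa-miR167abc and osa-miR1425 were called lower, at ratios of 0.862 and 0.868, osa-miR1862e was not called, and the other 4 were called higher.

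Among the same 5 pairs, the ratio to the annotated miRNA had 95% limits above 1 for OsmiR-68 and OsmiR-198 at 24 over 0 HAI, and below 1 for OsmiR-136. For 12 over 0 HAI only the pair of OsmiR-68 had limits that excluded 1, and for 24 over 12 HAI the pairs of OsmiR-68 and OsmiR-198 did. The limits of OsmiR-131 also lay above 1 in both comparisons with 24 HAI, under the condition given above. Those of OsmiR-198 for 24 over 0 HAI carry the condition that it exceeded 5 reads in the imbibed libraries alone. The scaling of the libraries does not enter these ratios. In TPM, the calls of OsmiR-68 and OsmiR-198 for 24 over 0 HAI held under 3 other scalings, with log2 ratios of 3.86 to 4.06 and 3.62 to 3.83, against 5.06 and 4.82 on the scale of genome-mapped reads. Under the same 3 scalings none of the other 5 was called higher, and for 12 over 0 HAI the call of OsmiR-68 alone held.

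**Figure D4:**
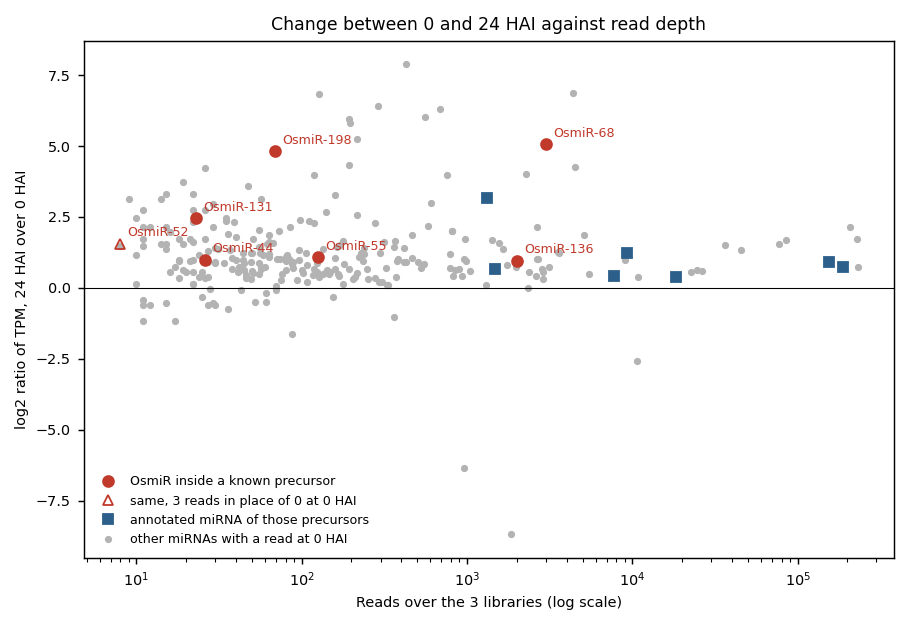
Log2 ratio of TPM at 24 over 0 HAI (vertical) against the reads summed over the 3 libraries (log scale, horizontal), 1 point per miRNA. The 7 OsmiR are in red, with a triangle for OsmiR-52, drawn with 3 reads in place of 0 at 0 HAI, their 7 annotated miRNAs are in blue, and other miRNAs with a read at 0 HAI are in grey. OsmiR-68 at 5.06 and OsmiR-198 at 4.82 lie above the other 5, and OsmiR-55, OsmiR-44 and OsmiR-136 lie near the median of 1.004. The value of OsmiR-198 rests on 2 reads at 0 HAI and is descriptive.

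The 5 other known sequences of these 6 families were osa-miR156l, osa-miR167fghj, osa-miR169c, osa-miR1862abc and osa-miR1862d, and 4 of them were called higher at 24 than at 0 HAI. The exception was osa-miR1862d. The largest ratio among the 12 known sequences was that of osa-miR169c, which is listed on the 3p arm. It had 6, 199 and 355 reads at 0, 12 and 24 HAI, a ratio of 65.5 for 24 over 0 HAI (29.8 to 180, exact test, adjusted p = 1.04e-103).

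Likeness to other miRNAs was measured as the distance between the log2 ratios of 12 over 0 and 24 over 0 HAI. Each member was compared with 139 other miRNAs that had at least 100 reads over the 3 libraries and a read in each. Sequences without a read at 0 HAI, such as OsmiR-38 with 0, 366 and 356 reads, were left out. Nearest to OsmiR-68 were OsmiR-122 at 0.809, osa-miR169c at 1.05 and osa-miR156l at 1.12, the last pair being known sequences of the 3p arm. Nearest to OsmiR-136 were OsmiR-96 at 0.00678, OsmiR-156 at 0.0317 and OsmiR-175 at 0.0525. Nearest to OsmiR-55 were OsmiR-149 at 0.211, OsmiR-71 at 0.217 and OsmiR-219 at 0.250. The 4 members with fewer reads were not compared in this way.

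Some OsmiR just missed the rule. OsmiR-93 shared 23 of its 24 nt with osa-MIR440, OsmiR-111 shared 20 of 21 nt with osa-MIR393a, and OsmiR-126 and OsmiR-87 shared 18 of 21 nt with osa-MIR167g and osa-MIR171b. The next by share of its length was OsmiR-18 with 14 of 21 nt, and the next by length of the run was OsmiR-196 with 15 of 24 nt. The median run over the 223 other OsmiR was 8 nt. The reads at 0, 12 and 24 HAI were 14, 51 and 24 for OsmiR-93. They were 11, 50 and 97 for OsmiR-111, 10, 18 and 21 for OsmiR-126, and 1, 6 and 12 for OsmiR-87. OsmiR-111 had its maximum at 24 HAI and OsmiR-93 at 12 HAI. The listed precursors of OsmiR-74 and OsmiR-88 also overlapped known precursors, although their mature sequences shared a run of no more than 8 of 23 nt and 13 of 20 nt with any known precursor. OsmiR-74, whose precursor spans osa-MIR169j on the same strand, had 1, 24 and 103 reads at 0, 12 and 24 HAI. OsmiR-88, on the strand opposite to osa-MIR156b and osa-MIR156e, had 3, 6 and 9 reads.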

How the data were processed

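The authors filtered the reads of 3 small RNA libraries for quality and adaptors with FastQC, kept 18–30 nt, mapped them with Bowtie (version not given in the sources used here) to MSU 7.0 and discarded Rfam 11 structural RNA. Known miRNAs were matched to miRBase 21 with up to 2 mismatches, and OsmiR were predicted with miRDeep2 and kept for a length of 20 to 24 nt, a fold-back precursor, more than 5 reads in at least 1 library, and a folding index (MFEI) over a minimum or a miRNA*. The authors deposited read counts without normalization. They also deposited TPM values, which are CPM by unit: in all 407 rows they equal the count per 1000000 genome-mapped reads. Folding scores (Mfold 3.2 energies) were deposited by the authors and enter no result. The table of known miRNAs holds 2 identical copies, of which the first was read, and 2 rows without a name were left out. Each mature sequence was counted once.

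Any 2 libraries were compared, miRNA by miRNA, by an exact binomial test (two-sided, conditional on the sum of both counts, with genome-mapped reads as totals) and Benjamini-Hochberg adjustment over all miRNAs with a read in the pair, 289 for both comparisons with 24 HAI and 288 for 12 over 0 HAI. Calls had an adjusted p under 0.05. With 1 library per time point, the quasi-likelihood test of edgeR could not be fitted. Ratios of pairs have exact conditional 95% limits and no p. All limits cover counting error only, since PCR reads without molecular identifiers are not independent molecules. A count of 0 was read as allowing 3 reads. Alternatives were 3 scalings (DESeq2's size factors, edgeR's TMM factors and the sum of all miRNA reads), a minimum of 10 reads, every table row counted, summed reads of the family, 1 read added and 99% limits.

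Named in the text are the 7 OsmiR, their annotated miRNAs, other known sequences of the same families, the OsmiR nearest to the rule and the 3 miRNAs nearest in pattern. The members and lists were chosen with earlier results of these data known. On simulated data, in 100 runs with 200 of 289 miRNAs changed 4-fold at the depth of 24 and 0 HAI, 82.5% of the changed miRNAs were called, and 2.00% of the others. As many were raised as lowered, and counts were drawn with counting error alone (Poisson). These shares therefore say nothing about variation between libraries. Folding used RNAfold 2.7.2, scaling used edgeR 4.0.16 and DESeq2 1.42.0 in R 4.3.3, and all else used scipy 1.17.1, pandas 2.3.3, numpy 2.4.6 and matplotlib 3.10.9 in Python 3.11.15.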

Additional observations from a re-analysis of the deposited data

How the results depend on the processing

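The scaling of the libraries decided most calls. The counts over 7 OsmiR that follow include OsmiR-52, OsmiR-131 and OsmiR-198, with the listing conditions given above. For 24 over 0 HAI, 6 of 7 OsmiR were called on the scale of genome-mapped reads, against 3 with the summed miRNA reads as totals (2 higher, and OsmiR-136 lower at an adjusted p of 0.0245 by the exact test), 2 with TMM factors of edgeR and 2 with size factors of DESeq2. For 12 over 0 HAI, 4 were called, against 1, 1 and 1 under the same settings. These scalings moved the median log2 ratio of all miRNAs for 24 over 0 HAI by -1.20, -1.002 and -0.99, and the share of called miRNAs that were higher was 43.9%, 56.6% and 57.1%, against 96.8% on the scale of genome-mapped reads. The log2 ratio of 24 over 0 HAI changed its sign for OsmiR-44 (-0.20 with summed reads, -0.0086 with TMM), OsmiR-55 (-0.12 with summed reads) and OsmiR-136 (-0.24 with summed reads, -0.044 with TMM, -0.034 with DESeq2). For 12 over 0 HAI it did so for OsmiR-131 (-0.42, -0.29 and -0.33 in the same order) and OsmiR-136 (-0.090 with summed reads, -0.0074 with DESeq2), and for 24 over 12 HAI for OsmiR-136 (-0.15, -0.080 and -0.026). The other results on the members kept their direction.

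Leaving out OsmiR-52 and OsmiR-131, which exceeded 5 reads only at 24 HAI, gave 4 calls for 24 over 0 HAI and 2 in place of 4 for 24 over 12 HAI. With that exception, the counts of calls for 24 over 12 HAI and of pairs whose limits excluded 1 stayed within 1.5 times under all settings run. This setting and the summed reads of the annotated arm were chosen after seeing the data. The minimum of 10 reads removed OsmiR-52 from both comparisons with 24 HAI, OsmiR-44 from 24 over 0 HAI and OsmiR-131 from 12 over 0 HAI. No paired analysis was possible because each time point has 1 library, and for the same reason no library could be left out. Ratios of OsmiR-44, OsmiR-52 and OsmiR-131 rest on 26, 8 and 23 reads in all and are limited by depth. So are those of OsmiR-198 against 0 HAI, where it had 2 reads, fewer than the 3 that a count of 0 was read as allowing.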
